A study of Mus musculus with 4 samples.

Results

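The mouse osteoblasts of this series were compared after 24 h and after 6 h with insulin, 1 array against 1 array, across all genes bright enough to be read. Osteoblasts are the cells that make bone. Each gene was represented by its brightest probe set among those annotated with a single gene symbol, and the gene was kept where the mean log2 intensity of that probe set over all 4 arrays reached the median of the probe sets that are not controls, an intensity of 66.2. That left 11662 of 18194 genes, read on 2 of the 4 arrays of the series. All values below are array intensities on a linear scale, and differences are log2 intensity at 24 h minus log2 intensity at 6 h.

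The 24 h and the 6 h array came from cells given 10 nM insulin after serum starvation at confluence, and the other arrays were 1 at 12 h with the same dose and 1 control labelled 0 h. The growth protocol describes all of the cells as lacking the IGF-1 receptor, whereas their genotype entry reads IGF-1 null, and nothing in the labels settles which gene was removed. Whether the cells were a line or a primary culture, and how it was made deficient, was not stated in the labels. There are no replicates, so no difference below has an error or a p-value, and precision is limited by having 1 array at each time. No untreated culture of 6 or 24 h was analysed here, so insulin and time in culture cannot be told apart. The 0 h array stands apart from the others in sex-linked transcripts. Eif2s3y, a Y-linked gene, read 12.2 on it against 295, 305 and 326 at 6, 12 and 24 h, and the RNA of the inactive X chromosome, Xist, read 109 against 1636, 1278 and 1463. Intensities at 0 h are printed below as levels of that array and not as the start of a time course.

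Insulin binds a receptor tyrosine kinase that acts through insulin receptor substrates on PI 3-kinase and Akt, and Akt keeps FoxO transcription factors out of the nucleus. In the osteoblast lineage the factors Runx2 and osterix (Sp7) direct cells to make type I collagen, then alkaline phosphatase and the phosphoproteins on which mineral is laid down, and cells buried in that matrix become osteocytes. Cartilage cells, fat cells and osteoblasts share a mesenchymal origin, whereas macrophages and osteoclasts come from blood-forming cells.

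The labelled cell type was read from its defining markers. Of 5 osteoblast markers with a probe set of a single symbol, 5 were above the brightness filter, namely Sp7, Alpl, Col1a1, Col1a2 and Ibsp, and their summed intensity was 53716 at 6 h and 63217 at 24 h. Runx2, Bglap and Spp1 were not analysed here. Markers of other cell types were present too. The 5 chondrocyte markers Sox9, Acan, Col2a1, Col10a1 and Comp summed to 6260.5 and 10746, and 5 of 5 were above the filter and higher at 24 h. The 4 adipocyte markers Pparg, Fabp4, Adipoq and Cidec summed to 2519 and 5202, 4 of 4 with the higher value at 24 h, with Cidec below the filter. The 7 macrophage and osteoclast markers Cd68, Csf1r, Ptprc, Itgam, Lyz2, Ctsk and Acp5 summed to 8122 and 10049, all 7 with the higher value at 24 h, and with Ptprc and Itgam below the filter. The 4 osteocyte markers Dmp1, Sost, Mepe and Phex summed to 1533 and 3352, 4 of 4 with the higher value at 24 h, with Sost below the filter. Such counts take a rise of any size, as for Sost (30.8 and 33.8) and Ctsk (a difference of 0.015). The sums are weighted to the brightest markers, such as Dmp1 (1164 and 2645) in the osteocyte sum. Smooth muscle markers summed to 40967 and 40902 over 5 genes, and endothelial markers to 245 and 226 over 5 genes, of which Pecam1, Cdh5, Tek and Vwf were below the filter. The part of other cell types in the differences below was not tested. In RNA from a whole culture, fewer cells of a type and less RNA per cell cannot be told apart.

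Most genes had nearly the same intensity on both arrays, and the larger differences ran in one direction. A set of 50 genes was at least 2-fold higher at 24 h, which is 0.429% of the 11662, and 0 genes were at least 2-fold lower. With the brightness filter at the 75th percentile the count of 50 was 27, and averaging the probe sets of each gene gave 33. At 1.5-fold, 196 genes were higher (1.68%) and 14 lower (0.12%). The median difference was -0.0023, with 49.1% of genes above 0 and 50.7% below, and the standard deviation across genes was 0.19. The shares of all genes past 1.5-fold, above 0 and below 0 are the ones to set beside the counts within lists below. The 5th and 95th percentiles of the difference were -0.24 and 0.32, and the 1st and 99th -0.38 and 0.76. The farthest genes were Wif1, a secreted inhibitor of Wnt ligands, 2.71-fold higher, and Usp18, an interferon-induced protease that removes ISG15 from proteins, 1.70-fold lower.

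**Figure D1:**
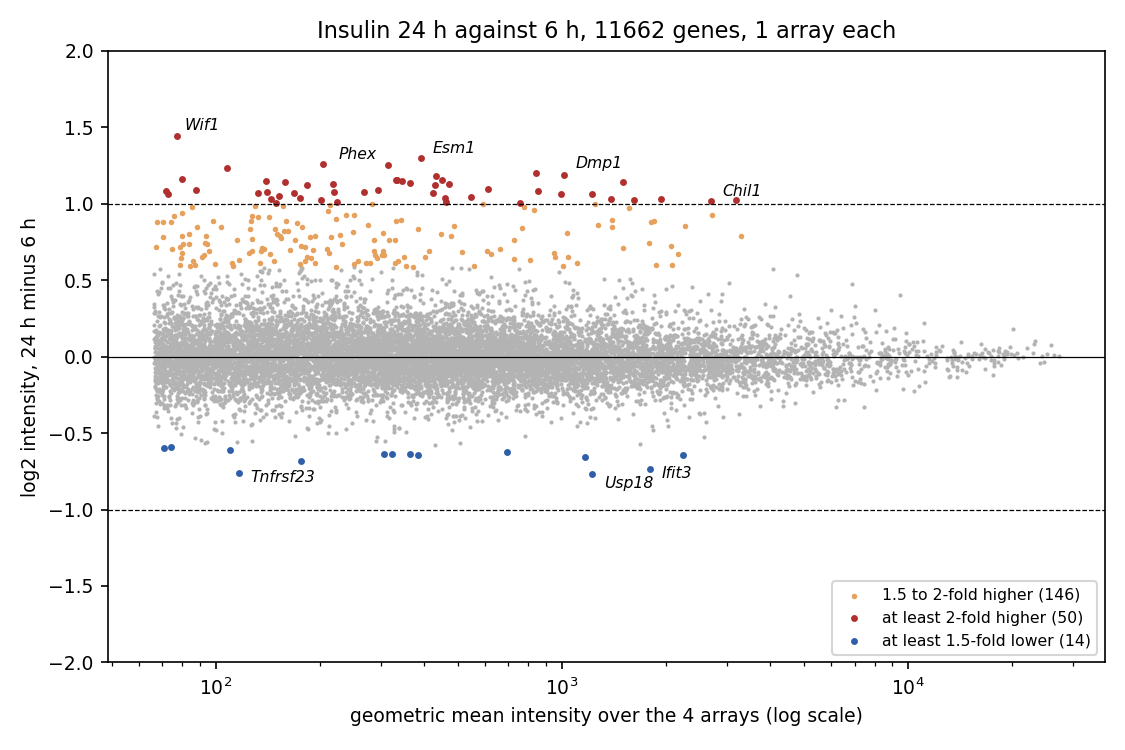
Log2 intensity at 24 h minus 6 h (vertical axis) for 11662 genes against the geometric mean intensity over the 4 arrays (horizontal log axis), with dashed lines at 2-fold; each point is 1 gene, compared between single arrays. The 50 red points lie at or above the upper line, no point lies at the lower line, and the 14 blue points are at least 1.5-fold lower.

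The 2-fold genes were spread over the range of brightness. With the genes cut into 4 equal groups from dim to bright, 14, 15, 12 and 9 were at least 2-fold higher, while the standard deviation of all differences in the same groups went from 0.22 to 0.20, 0.17 and 0.16. At the edge of the brightness filter, Spry4 and Zfp446 were just above it with differences of 0.28 and 0.17, and Ap3b2 and Prss55 just below it with -0.047 and 0.20. Below the filter only St8sia4 and Cd209g differed 2-fold, both higher at 24 h. At the 2-fold line, Serping1 (2.004-fold) and Tnfrsf19 (2.01-fold) were just inside, and Plin4 (1.999-fold) and Ptch1 (1.996-fold) just outside.

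The 12 h array, which took no part in the choice of these genes by difference, lay between the other 2 for every one of the 50. Since these genes were chosen for a wide gap between 6 and 24 h, a further array falls inside it more readily, and nothing is read from that count. At 12 h the 50 genes had covered between 43.6% and 83.7% of the way from their 6 h to their 24 h intensity, with a median of 65.7%, and all 50 were nearer to the 24 h value on the log2 scale. Their median intensity was 339 at 6 h, 603 at 12 h and 733 at 24 h. Of the 196 genes at 1.5-fold, 190 had an intermediate value at 12 h, and of the 14 lower genes 9 did. Over all 11662 genes 4099 did (35.1%). The 196 and the 14 were also chosen for a gap between 6 and 24 h, so nothing is read from their counts either. The 0 h array was below the 6 h array for 47 of the 50, and for 41 of them by at least 2-fold, on an array that stands apart as described above. Over all genes it was below for 5888 of 11662, and by at least 2-fold for 1232 (10.6%). Among the 50, Cxcl5, Lpl and Pcdhb9 were the exceptions, with 0 h intensities of 936, 9525 and 502 against 239, 1492 and 108 at 6 h.

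Some genes of bone mineralisation were higher at 24 h, 6 of the 19 on the list by at least 1.5-fold, and type I collagen genes differed by less than that. Phex, an endopeptidase of phosphate and mineral control in osteocytes, had intensities of 191, 223, 427 and 531 at 0, 6, 12 and 24 h (2.39-fold from 6 to 24 h). Dmp1, an acidic phosphoprotein of the osteocyte matrix, had 158, 1164, 2154 and 2645 (2.27-fold). Alpl, the tissue-nonspecific alkaline phosphatase, had 61.5, 523, 919.7 and 1139.5 (2.18-fold). Each of these genes was highest at 24 h and intermediate at 12 h. They belong to the 50 genes chosen for a gap from 6 to 24 h, so nothing is read from this order. Ifitm5, a membrane protein found mainly in osteoblasts, had 73.3, 302, 523 and 644 (2.13-fold). Of 19 bone matrix and mineralisation genes, 6 were at least 1.5-fold higher (31.6%, against 1.68% of all genes) and 0 lower. Their median difference was 0.28, or 0.11 with the filter at the 75th percentile. The other 2 of the 6 were the keratan sulfate proteoglycan gene Omd (1.99-fold) and Smpd3, a sphingomyelinase gene needed for mineralisation (1.85-fold). Ibsp, bone sialoprotein, had 202, 8849, 11706 and 13147 with a difference of 0.57, and its other probe set gave 0.92. The collagen chain genes Col1a1 and Col1a2 differed by 0.18 and 0.10, and the matrix genes Sparc, Bgn and Dcn by 0.021, -0.0093 and 0.024. The transport genes Slc20a1 (phosphate) and Ank (pyrophosphate) differed by -0.060 and -0.23.

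Both other probe sets of Dmp1 above the filter were also higher at 24 h, by 1.04 and 1.32. The Dmp1 promoter is printed because this gene was among the highest of both the bone and the osteocyte list and because its window holds the core letters bound by Runx factors. The stretch lies at chr5:104202417-104202616 on the plus strand of GRCm38.p6, ends at the base before a RefSeq transcription start, and has ACCACA in capitals, 164 to 159 bases before the start.
Dmp1: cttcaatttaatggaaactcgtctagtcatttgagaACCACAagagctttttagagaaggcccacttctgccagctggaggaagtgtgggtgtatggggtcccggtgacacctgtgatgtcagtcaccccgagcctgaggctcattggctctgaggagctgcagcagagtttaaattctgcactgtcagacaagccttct
In windows of 250 bases before the start, searched on both strands for ACCACA, 4 of 18 windows of bone matrix genes (22.2%) held it, against 10.5% of windows of all genes above the filter and 5 of 48 (10.4%) for the 2-fold higher genes. The letters were also in 4 of 13 windows (30.8%) of the 1.5-fold lower genes and in 14.0% of all promoter windows. Such a match describes letters and is not evidence of binding.

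Among transcription factors and receptors of the osteoblast lineage, 3 of 16 were at least 1.5-fold higher (18.8%, against 1.68% of all genes) and 0 lower. The list median was 0.068. Pth1r, the receptor for parathyroid hormone, had 36.9, 703, 1186 and 1444 at 0, 6, 12 and 24 h (2.06-fold). Mef2c, a MADS-box factor that acts in osteocytes and cartilage, had 60.4, 205, 315 and 418 (2.04-fold), and Sp7 had 60.8, 125, 161 and 213 (1.70-fold). Again the 24 h value was the highest of the 4 for each gene, and all of them belong to the 196 chosen by that gap. Fosl1, an AP-1 factor, and Msx2, a homeobox factor, had the values furthest below 0, -0.39 and -0.30. Of the helix-loop-helix repressors, Twist2 had 1691, 361, 339 and 276 with a difference of -0.39, and Twist1 differed by 0.078. Irx5, a homeobox factor, was next after Phex and Dmp1 among 7 osteocyte genes with 0.35, and the median of that list was 0.28. The bone matrix and osteocyte lists share 3 of these genes, Dmp1, Mepe and Phex, and the value of Mepe (0.28) is the median of both lists. Of 12 genes by which osteoblasts act on osteoclasts, 1 passed 1.5-fold, Tnfrsf11b, the decoy receptor osteoprotegerin, at 0.79, while its other probe set gave 0.14, and the median of the 12 was 0.012. The probe sets of its ligand Tnfsf11 (RANKL) were below the filter.

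**Figure D2:**
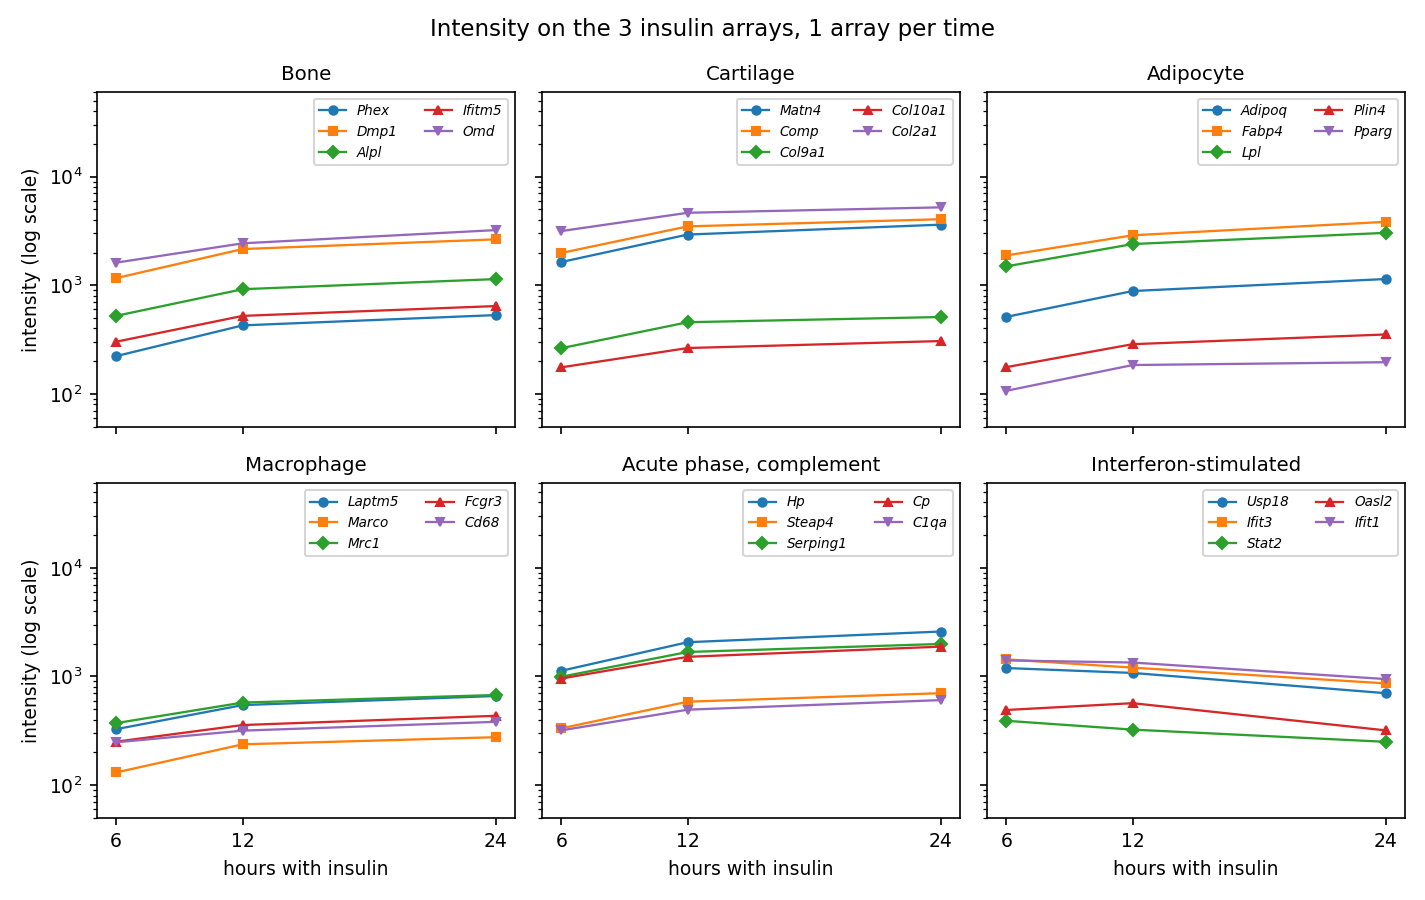
Intensity (log axis) against hours with insulin for 5 genes in each of 6 groups, 1 array per time, with lines joining the 3 insulin arrays. In the bone, cartilage, adipocyte, macrophage and acute phase panels every gene is highest at 24 h with 12 h in between, and in the interferon-stimulated panel every gene is lowest at 24 h, with Oasl2 highest at 12 h. All genes outside the interferon-stimulated panel belong to the 196 at least 1.5-fold higher at 24 h, so nothing is read from their order.

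Cartilage genes stood higher at 24 h as a list. Of 15 genes, 15 were above 0, against 49.1% of all genes, and the median was 0.60. At least 1.5-fold higher were 8 (53.3%, against 1.68% of all genes). Matn4, a matrilin of the cartilage matrix, had 296, 1635, 2928 and 3611 at 0, 6, 12 and 24 h (2.21-fold). Comp, the cartilage oligomeric matrix protein, had 133, 1980.4, 3481 and 4051 (2.05-fold). Col9a1, a chain of the fibril-associated collagen IX, had 32.3, 263, 457 and 510.2 (1.94-fold), and Col10a1, the collagen of hypertrophic cartilage, had 35.4, 176, 264 and 307 (1.75-fold). These 4 probe sets had their lowest insulin value at 6 h and their highest at 24 h, and their genes belong to the 196 chosen by that gap. The other Col9a1 probe set above the filter was 1.18-fold higher at 24 h, with 12 h highest, and the matrilin gene Matn3 had 85.8, 82.8 and 99.7 at 6, 12 and 24 h. Col2a1, the main cartilage collagen, had 239, 3151, 4643 and 5209 (1.65-fold), and the proteoglycan gene Acan was 1.56-fold higher. The cartilage transcription factors were nearer to 0, with Sox9 at 0.084, Sox5 at 0.13 and Sox6 at 0.30. Cnmd, the cartilage glycoprotein chondromodulin, which was in no list, was 2.08-fold higher, and the related secreted proteins Mia and Otor were 2.22-fold and 2.20-fold higher. Cnmd, Mia and Otor were picked out of the 50 genes at 2-fold, so their direction was fixed.

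Among 19 collagens that the bone list did not hold, 2 were at least 1.5-fold higher, Col22a1 (2.09-fold), a collagen of tissue junctions, and Col14a1 (1.65-fold), a fibril-associated collagen, and the median was 0.16. Col22a1 read 28.0, 65.1, 111 and 136 at 0, 6, 12 and 24 h, and passed the filter through its 12 and 24 h values. The other Col22a1 probe set above the filter was 1.18-fold higher. Of 28 matricellular and proteoglycan genes 3 were at least 1.5-fold higher (Omd, Acan and Fmod), with a median of 0.032, and of 20 matrix proteases and inhibitors 3 were, with a median of 0.044. The proteases were stromelysin Mmp3 (1.90-fold), collagenase Mmp13 (1.81-fold) and the serine protease Fap (1.62-fold). Their inhibitors Timp1, Timp2 and Timp3 differed by 0.051, -0.0100 and 0.094. None of 19 collagen-processing enzymes passed 1.5-fold in either direction, and their median was 0.053.

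Fat cell genes divided into those far above 0 and those near it. Adipoq, the hormone adiponectin, had 23.4, 511, 885 and 1141 at 0, 6, 12 and 24 h (2.23-fold). Fabp4, a fatty acid carrier, had 664, 1879, 2883 and 3834 (2.04-fold), and Lpl, lipoprotein lipase, had 9525, 1492, 2394 and 3035 (2.03-fold). Lpl was brightest at 0 h, unlike Adipoq and Fabp4. Plin4, a lipid droplet protein, had 354, 176, 287 and 353, and Pparg, the transcription factor that directs fat cell formation, had 223, 107, 184 and 196 (1.83-fold). With Cd36 (1.65-fold), a fatty acid transporter, and the factor Cebpa (1.53-fold), 7 of 16 adipocyte genes were at least 1.5-fold higher and 0 lower. That is 43.8%, against 1.68% of all genes, and the list median was 0.18. Cebpb, Cebpd, Ebf1 and Plin2 differed by -0.0084, 0.11, 0.060 and -0.14. Of 21 fatty acid synthesis genes 1 passed 1.5-fold (4.76%, against 1.68% of all genes higher). It was the desaturase gene Scd1 (1.67-fold, and 1.15-fold by its other probe set above the filter). None of 20 sterol pathway genes passed 1.5-fold. The list medians were 0.094 and -0.092.

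Secreted regulators of Wnt and BMP signalling were among the largest differences. Wif1 had 9.47, 85.4, 191 and 232 at 0, 6, 12 and 24 h, and Sfrp4, a secreted decoy for Wnt ligands, had 171, 949, 1631 and 2013 (2.12-fold). Sfrp2 (1.57-fold) was the remaining one of 3 genes past 1.5-fold among 17 secreted Wnt antagonists and agonists, whose median was 0.078. The Wnt genes Wnt5a, Wnt11 and Wnt4 differed by 0.19, 0.033 and -0.15, and Axin2, a target of Wnt signalling, by 0.30. Chrdl1, a secreted BMP antagonist, had 85.8, 345, 621 and 764 (2.21-fold) and the BMP gene Bmp8a was 1.70-fold higher, 2 of 20 BMP genes past 1.5-fold. The median of that list was -0.0052, and the BMP target genes Id1, Id2 and Id3 differed by -0.063, 0.10 and -0.010. None of 20 TGF-beta response genes passed 1.5-fold, and their median was 0.089.

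Genes of insulin action itself differed little between the arrays. At 0, 6, 12 and 24 h the receptor gene Insr read 369, 181, 206 and 215, a difference of 0.25 from 6 to 24 h, while 2 dimmer probe sets below the filter gave -0.23 and -0.16. The brightest Igf1r probe set had 388, 259, 265 and 319 with a difference of 0.30, and its other 4 probe sets ranged from -0.23 to 0.029. Igf1, the gene that the genotype entry names, was bright on all arrays, with 1641, 5532, 5983 and 6024. It differed by 0.12 from 6 to 24 h, and its other 3 probe sets gave -0.039, -0.17 and -0.35. Signals of the receptor and its ligand check neither genotype, since the position of any deletion relative to these probe sets is not given. Irs1 and Irs2, the substrates of the receptor, differed by 0.074 and -0.088. Of 33 insulin receptor signalling genes, 1 passed 1.5-fold (3.03%, against 1.68% of all genes higher) and the median was 0.032. That gene was Socs2, a feedback inhibitor of cytokine and growth hormone receptors, which had 148, 274, 380.3 and 442 (1.61-fold). Of 26 FoxO targets 0 passed 1.5-fold, 21 were above 0 (80.8%, against 49.1% of all genes), and the median was 0.074. Among 13 IGF ligands and binding proteins the one past 1.5-fold was Igfbp5, a binding protein that attaches to bone matrix, with 54.9, 2916, 4338 and 5414 (1.86-fold), though its other probe set above the filter differed by only 0.0036. Igfbp4 differed by 0.40 and Igf2 by 0.14. The median of the 13 was 0.12, or -0.041 when all probe sets of a gene were averaged.

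Complement and acute phase genes had the highest median of the 39 lists, 0.86. Among them 10 of 12 were at least 1.5-fold higher (83.3%, against 1.68% of all genes) and 0 lower. Hp, the haemoglobin-binding protein haptoglobin, had 83.8, 1127, 2065 and 2589 at 0, 6, 12 and 24 h (2.30-fold). Steap4, a metalloreductase, had 38.0, 333, 586 and 701 (2.11-fold, and 1.40-fold by its other probe set above the filter) and Serping1, the inhibitor of complement C1, had 99.3, 993, 1679 and 1991 (2.004-fold). Cp, the copper-carrying ferroxidase ceruloplasmin, was 1.97-fold higher. The C1q chain genes C1qa, C1qb and C1qc, which macrophages make, were 1.90, 1.70 and 1.78-fold higher, and the C1 protease genes C1s1 and C1ra 1.55 and 1.51-fold. C2 and Cfp differed by 0.039 and -0.086, so the components did not all move alike.

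Inflammatory mediators went both ways. Lcn2, the iron-siderophore carrier lipocalin 2, had 45.5, 196, 416 and 468 at 0, 6, 12 and 24 h (2.40-fold), and the neutrophil chemokine Cxcl5 had 936, 239, 419 and 482 (2.01-fold). Saa3, a serum amyloid A protein, was 1.90-fold higher and the adhesion molecule Icam1 1.58-fold. These were 4 of the 5 members past 1.5-fold among 25, and the median of the list was -0.064. The chemokine genes Cxcl10, Ccl2 and Ccl11 and the cytokine gene Il33 lay on the other side, at -0.50, -0.43, -0.43 and -0.53. Il6 and Ptgs2 differed by -0.029 and -0.035.

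Macrophage and osteoclast genes were above 0 in 17 of 17 cases, against 49.1% of all genes, with a median of 0.56. At least 1.5-fold higher were 7 (41.2%, against 1.68% of all genes). Laptm5, a lysosomal protein of blood-derived cells, had 21.1, 327, 545 and 661 at 0, 6, 12 and 24 h (2.02-fold). Mrc1, the mannose receptor, had 39.7, 372, 575 and 675 (1.81-fold) and Fcgr3, a receptor for antibody, had 35.8, 251, 357 and 434 (1.73-fold). The other 3 Laptm5 probe sets above the filter differed by less, at 0.33, 0.51 and 0.036 on the log2 scale. Cybb, the catalytic subunit of the phagocyte oxidase, was 1.66-fold higher. Csf1r, the receptor that macrophages depend on, and Lyz2, lysozyme, differed by 0.57 and 0.46. The pan-leukocyte gene Ptprc, below the filter, had 66.1 at 6 h and 123 at 24 h, and Itgam 21.3 and 26.1. The osteoclast protease gene Ctsk and the osteoclast phosphatase gene Acp5 differed by 0.015 and 0.26. Further genes known from macrophages were among the 50 without being in a list: the scavenger receptor gene Marco (2.11-fold), the macrophage elastase gene Mmp12 (2.10-fold), the lectin gene Clec4n (2.20-fold), Ms4a6d (2.10-fold) and the clotting factor gene F13a1 (2.10-fold). They were picked out of the 50, so their direction was fixed and they add nothing to the counts of the list.

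Of the 50 genes at 2-fold, 21 belonged to a list and 29 to none. Esm1, the proteoglycan endocan, had 18.8, 627, 1284 and 1543 at 0, 6, 12 and 24 h (2.46-fold). Pdzrn4, a PDZ and RING domain protein, had 52.9, 84.3, 154 and 198 (2.35-fold). Npnt, nephronectin, an integrin ligand of the matrix, had 63.8, 524, 877 and 1187 (2.26-fold). Several of the 29 encode secreted or matrix proteins, a grouping made by eye, and the share of such genes among all genes was not counted. Rbp4, the carrier of retinol in blood, had 24.7, 745, 1353 and 1656 (2.22-fold), Kng1, the kininogen from which bradykinin is cut, had 17.5, 86.9, 139 and 194 (2.23-fold), and Chil1, a chitinase-like glycoprotein of cartilage and macrophages, had 239.9, 4018, 6711 and 8153 (2.03-fold). The protease inhibitor Slpi was 2.04-fold higher, the matrix proteins Smoc1 and Fbln7 2.06 and 2.19-fold, the granule proteoglycan Srgn 2.14-fold and the collagen gene Col23a1 2.05-fold.

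Others of the 29 encode channels, receptors and enzymes. Panx3, a channel protein of osteoblasts and cartilage cells, had 32.1, 725, 1338 and 1583 at 0, 6, 12 and 24 h (2.18-fold), and Ramp1, the partner protein of the receptor for the neuropeptide CGRP, had 64.9, 119, 190.4 and 262 (2.21-fold). For Ramp1, the other probe set above the filter differed by only 0.12 on the log2 scale and read lowest at 12 h. Hpgd, which inactivates prostaglandins, had 12.1, 287, 523 and 623 (2.17-fold), and Car3, a carbonic anhydrase of muscle and fat, had 48.0, 2347, 4053 and 4907 (2.09-fold). The representative probe sets of these genes again had 12 h in between, which the choice of the 50 favours. Trpm3, a cation channel, was the dimmest of the 50 at 6 h, with 49.0, 51.1, 97.0 and 108, below the filter intensity at 0 and 6 h. Entpd3, an enzyme that breaks down extracellular nucleotides, was 2.13-fold higher, the TNF receptor family gene Tnfrsf19 2.01-fold, the p53 family factor Trp63 2.07-fold, the protocadherin Pcdhb9 2.11-fold and the calmodulin-binding peptide Pcp4 2.05-fold.

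Interferon-stimulated genes were the list furthest below 0. Of 28 genes 26 were below 0, against 50.7% of all genes, and the median was -0.29. At 1.5-fold 4 were lower (14.3%, against 0.12% of all genes) and 0 higher. Usp18 had 2488, 1195, 1077 and 701 at 0, 6, 12 and 24 h (1.70-fold lower). Ifit3, a protein with tetratricopeptide repeats that binds viral RNA complexes, had 6924, 1437, 1205 and 863 (1.67-fold lower), and Stat2, the signal transducer of type I interferon, had 683, 391, 324 and 250.3 (1.56-fold lower). Oasl2, an oligoadenylate synthetase-like protein, had 2599, 491, 567 and 319 (1.54-fold lower). These genes were lower at 24 h than at 12 h, and Oasl2 was higher at 12 h than at 6 h. They belong to the 14 chosen by the gap from 6 to 24 h, so nothing is read from their 24 h values being lowest. For the list, the median from 6 to 12 h was -0.036 and that from 12 to 24 h -0.30. Ifit1 (1.49-fold) and the immunity-related GTPase gene Igtp (1.48-fold) came next below the 1.5-fold size, while Ifit2, B2m and Irf1 differed by 0.033, 0.024 and -0.048. Zbp1, a sensor of nucleic acids, and Rtp4, a receptor transporter, both inducible by interferon but in no list, were 1.60 and 1.56-fold lower. The other Zbp1 probe set above the filter was 1.16-fold lower. Both genes were picked from the 14 lower ones, so their direction was fixed.

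Promoters of 4 of these genes are printed because they hold the letters of the interferon-stimulated response element, a motif known from promoters of genes that interferon induces. Each stretch runs 5′ to 3′ on the gene's strand, here the plus strand in all 4, and ends at the base before the RefSeq transcription start of GRCm38.p6. Capitals mark matches to its letters, GAAA, any 2 bases and GAAA again, or to their complement from the opposite strand. The positions are chr19:34640729-34640888 for Ifit1, chr19:34583369-34583528 for Ifit3, chr10:128270248-128270497 for Stat2 and chr11:58199436-58199555 for Igtp.
Ifit1: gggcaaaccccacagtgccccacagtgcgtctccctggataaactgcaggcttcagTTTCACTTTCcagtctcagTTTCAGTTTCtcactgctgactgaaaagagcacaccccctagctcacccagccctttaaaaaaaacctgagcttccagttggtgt
Ifit3: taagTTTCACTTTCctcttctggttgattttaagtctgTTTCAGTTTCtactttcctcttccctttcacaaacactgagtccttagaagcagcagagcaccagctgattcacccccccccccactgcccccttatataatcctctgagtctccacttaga
Stat2: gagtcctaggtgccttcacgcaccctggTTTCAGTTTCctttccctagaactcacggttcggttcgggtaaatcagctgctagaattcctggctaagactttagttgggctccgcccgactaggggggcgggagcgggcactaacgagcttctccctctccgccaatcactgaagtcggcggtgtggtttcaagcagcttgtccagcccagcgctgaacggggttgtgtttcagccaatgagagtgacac
Igtp: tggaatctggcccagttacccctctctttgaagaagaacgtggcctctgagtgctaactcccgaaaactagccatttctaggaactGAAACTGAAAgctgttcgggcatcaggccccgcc
Ifit1 and Ifit3 have a pair of matches each, the nearer ones 85 to 76 and 122 to 113 bases before the start, Stat2 has 1 match 222 bases before it and Igtp 1 match 34 bases before it. Of 28 windows of 250 bases for genes of the list, 12 held the motif on either strand (42.9%), against 2.43% for all genes above the filter and 2.98% of all 32851 windows. For the 1.5-fold lower genes 2 of 13 windows held it (15.4%). This motif was chosen after the values were seen. The share in the list describes how the list is made up, and it says nothing about what set the intensities.

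Hypoxia response and glycolysis genes were mostly a little below 0, without any gene past 1.5-fold. In the hypoxia list 13 of 17 genes were below 0, with a median of -0.14, and in the list of glycolysis and glucose uptake 18 of 21, with a median of -0.13. Over all genes 50.7% were below 0. Ankrd37, a target of hypoxia-inducible factor, had 130.0, 139, 103 and 94.7 at 0, 6, 12 and 24 h (1.47-fold lower). Egln3, a prolyl hydroxylase that marks that factor for destruction, had 170.0, 449, 306 and 306 (1.47-fold lower), and Bnip3, a mitochondrial protein of autophagy, had 913, 3259.5, 2343 and 2376. In each of these the 12 h value was already near the 24 h value. The lactate exporter gene Slc16a3 had 27.5, 276, 184 and 188 and the hexokinase gene Hk2 588, 699, 549.8 and 522, with differences of -0.55 and -0.42. The glucose transporter gene Slc2a1 differed by -0.38, whereas Slc2a4, the insulin-regulated transporter, differed by 0.17. On the other side of 0 were Car9, a carbonic anhydrase, at 0.53 and the aldolase gene Aldoc at 0.43. Ak4, an adenylate kinase in no list, was 1.49-fold lower.

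The promoters of Bnip3 and Ankrd37 are printed because both hold ACGTG, the core bound by hypoxia-inducible factors. Both genes lie on the minus strand, at chr7:138909507-138909656 and chr8:45999851-46000050 of GRCm38.p6, and the stretches are written on that strand up to the base before the RefSeq start, with matches in capitals.
Bnip3: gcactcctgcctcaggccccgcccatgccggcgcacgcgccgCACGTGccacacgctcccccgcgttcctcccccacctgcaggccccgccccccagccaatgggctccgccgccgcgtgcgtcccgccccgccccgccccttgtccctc
Ankrd37: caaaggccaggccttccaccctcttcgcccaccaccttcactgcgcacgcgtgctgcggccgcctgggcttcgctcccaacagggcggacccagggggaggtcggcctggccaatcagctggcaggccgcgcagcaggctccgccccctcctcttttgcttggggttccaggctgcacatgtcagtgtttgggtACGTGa
In Bnip3 the matches on both strands overlap and make up CACGTG, which is also the E-box of the clock proteins. Of 21 windows for hypoxia genes 13 held ACGTG on either strand (61.9%), against 21.3% for all genes above the filter. That share describes how the list is made up, and it says nothing about what set the intensities.

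Clock genes differed in both directions and by less than 1.5-fold in 16 of 16 cases, with a median of 0.097, or -0.019 when all probe sets of a gene were averaged. Arntl, the activator BMAL1, had 281, 455, 315 and 329 at 0, 6, 12 and 24 h (1.38-fold lower), and Cry1, a repressor, had 194, 207, 189.7 and 150.3 (1.38-fold lower). Dbp, an output factor of the clock, had 732, 498, 925 and 693 (1.39-fold higher). Arntl was thus lowest at 12 h and Dbp highest at 12 h among the insulin arrays, while Cry1 was lowest at 24 h. Nr1d2, a repressor of Arntl, had 1156, 906, 1233 and 1179.9, and Per1 and Per3 differed by 0.26 and 0.22. Tef, an output factor related to Dbp, differed by 0.20. The promoters of Tef and Cry1 are printed because they hold the clock E-box CACGTG, in capitals. They lie at chr15:81802473-81802672 on the plus strand and chr10:85185055-85185254 on the minus strand of GRCm38.p6, each ending at the base before a RefSeq start and written on the gene's strand.
Tef: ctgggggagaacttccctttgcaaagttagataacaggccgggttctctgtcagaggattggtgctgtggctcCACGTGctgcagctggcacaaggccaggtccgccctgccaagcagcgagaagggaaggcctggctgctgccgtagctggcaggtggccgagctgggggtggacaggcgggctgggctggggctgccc
Cry1: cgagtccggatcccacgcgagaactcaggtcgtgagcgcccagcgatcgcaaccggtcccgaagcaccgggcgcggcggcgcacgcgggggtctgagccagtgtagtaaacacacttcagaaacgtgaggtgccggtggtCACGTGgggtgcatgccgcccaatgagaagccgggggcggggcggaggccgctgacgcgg
The E-box was in 5 of 22 windows of clock genes (22.7%), against 8.25% for all genes above the filter. It reads the same on both strands and contains ACGTG. Its share in clock genes describes how that list is made up, and nothing is read from it about what set the intensities.

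Growth and division genes lay mostly below 0, none by as much as 1.5-fold. Of 36 DNA replication genes 33 were below 0, against 50.7% of all genes, with a median of -0.19 and 0 past 1.5-fold. The members furthest from 0 were Mcm3 (-0.49) and Mcm6 (-0.42). Of 30 ribosome biogenesis genes 26 were below 0, with a median of -0.16, and Nop16 (-0.38) and Fbl (-0.37) were the lowest. Of 37 mitosis genes 26 were below 0, with a median of -0.097. By their medians the mitosis genes were lower at 12 h than on either side. Their median from 6 to 12 h was -0.51 and that from 12 to 24 h 0.44. Of the 37 genes 1 had 12 h in between, against 35.1% of all genes. The 24 h minus 6 h difference therefore passes over a dip in these genes. DNA replication genes were also lowest at 12 h by their medians, -0.28 from 6 to 12 h and 0.082 from 12 to 24 h, and 8 of 36 had 12 h in between. The largest mitosis differences from 6 to 24 h were Cdc25c (0.32) and Cenpf (0.26).

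**Figure D3:**
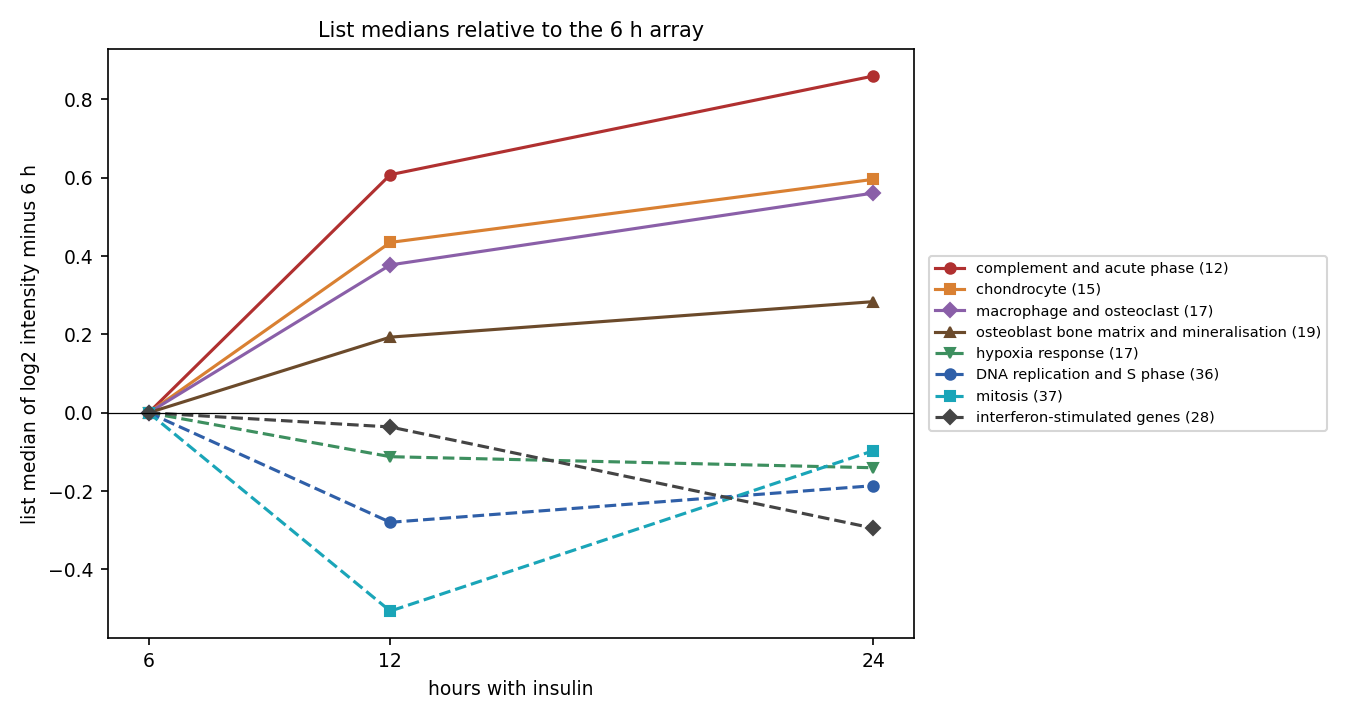
Median log2 intensity relative to the 6 h array (vertical axis) against hours with insulin for 8 gene lists, with the number of genes above the brightness filter in brackets, 1 array per time. At 24 h the complement and acute phase list is at 0.86 and the interferon list at -0.29, and the mitosis list is at -0.51 at 12 h and -0.097 at 24 h.

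Several housekeeping and signalling lists had medians near that of all genes. The median was 0.00068 for 32 cytosolic ribosomal proteins, -0.035 for 46 oxidative phosphorylation subunits and 0.035 for 17 smooth muscle and myofibroblast genes, none of which had a gene past 1.5-fold. It was 0.0074 for 27 immediate early and AP-1 factors, -0.014 for 14 genes of ERK feedback, -0.0084 for 29 amino acid response genes and -0.023 for 29 chaperones, also with 0 genes past 1.5-fold. Nrf2 and metallothionein genes (20, median 0.028) and histone genes (9, median 0.068) had none either, nor had the 3 endothelial genes above the filter (median -0.069). Of 21 p53 targets 1 passed that size, Tnfrsf23, a decoy receptor for the death ligand TRAIL, with 80.8, 186, 112 and 110.3 at 0, 6, 12 and 24 h (1.69-fold lower). The reference genes Actb and Gapdh, each represented by a control probe set, differed by -0.041 and -0.12. The medians of 20 chromosomes lay between -0.016 and 0.012. Eif2s3y differed by 0.14 and the Xist probe sets above the filter by -0.16 and 0.34.

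**Figure D4:**
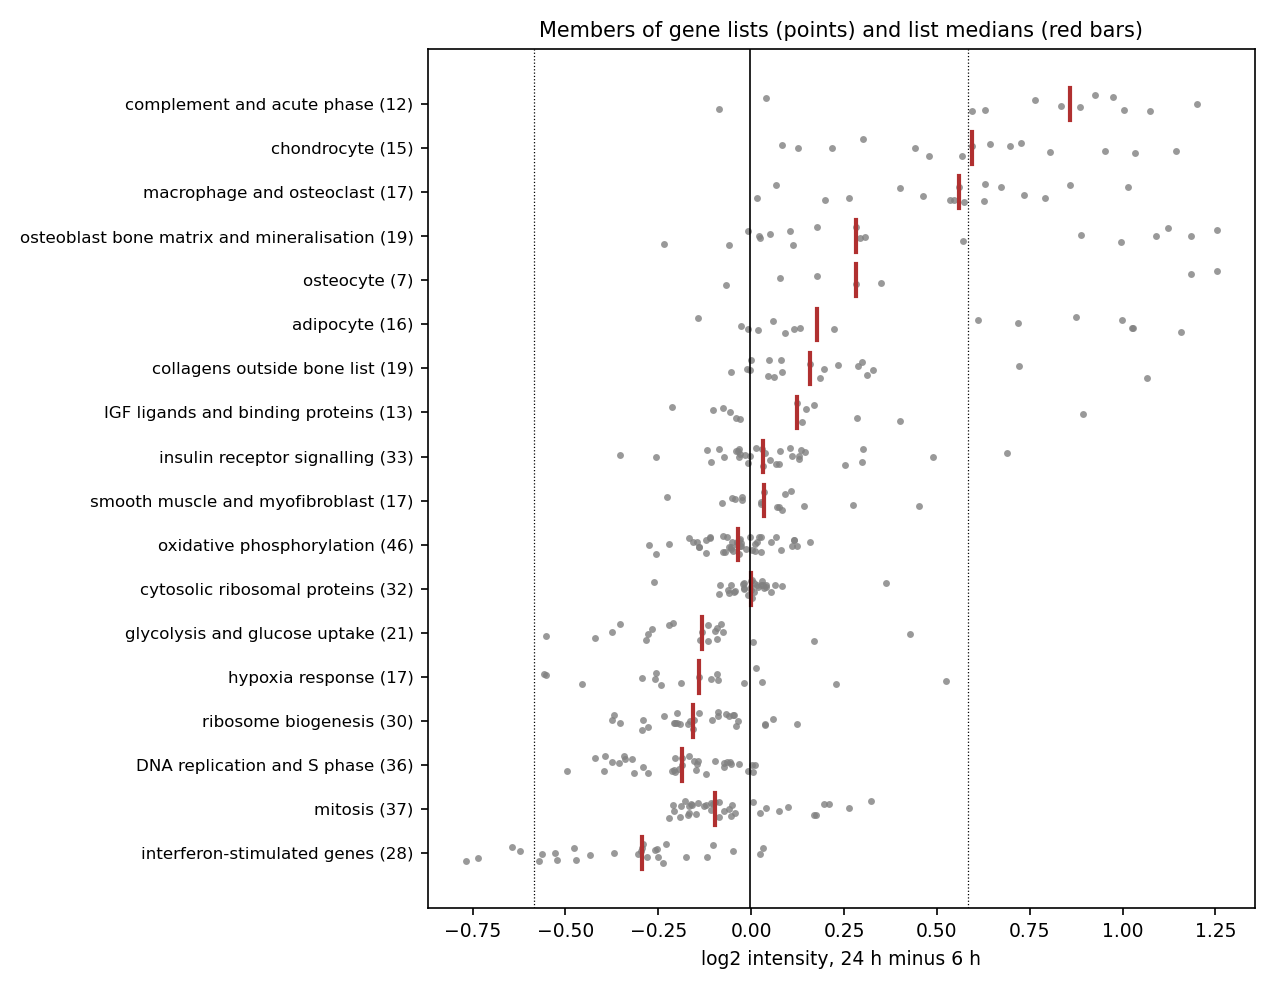
Log2 intensity at 24 h minus 6 h (horizontal axis) for the members above the brightness filter of 18 of the 39 lists, with the number of genes in brackets; each grey point is 1 gene between single arrays, red bars are list medians and dotted lines mark 1.5-fold. Complement, chondrocyte and macrophage members lie mostly to the right, interferon-stimulated members to the left, and ribosomal protein members close to 0.

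The remaining genes at least 1.5-fold lower at 24 h formed no list. Rnf4, a ubiquitin ligase that recognises SUMO chains, had 1660.3, 1377, 928 and 875 at 0, 6, 12 and 24 h (1.57-fold lower), but its other probe set differed by -0.029. Rian, an imprinted non-coding RNA, had 46.9, 733, 537 and 470.4 (1.56-fold lower), and its other 2 probe sets gave -0.66 and 0.31. The granule protease genes Mcpt8 and Gzme, which belong to multigene families, had 33.9, 1262, 509 and 813 and 54.0, 802, 484 and 516. Mcpt8 was lowest at 12 h among the insulin arrays. The microtubule-associated gene Map1b was 1.53-fold lower, Dcdc2a, of the doublecortin family, 1.51-fold, and Mctp2, a membrane protein with C2 domains, 1.51-fold. Just under the 1.5-fold size were the proteoglycan gene Optc (1.48-fold) and Tedc1 (1.47-fold), a gene of centriole assembly.

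Other probe sets of the same genes were read as a measure that did not enter the choice of the representative by difference. They share the RNA of the 2 arrays, so they check the probes and not the culture. Of the 50 genes at 2-fold, 14 had 21 other probe sets above the filter. All 21 were higher at 24 h, 12 of them by at least 1.5-fold, with a median difference of 0.72 and a range from 0.036 to 1.32. For the 196 genes at 1.5-fold, 90 of 92 other probe sets were higher, and for the 14 lower genes 4 of 5 were lower. Over all genes, 4894 of 8258 other probe sets (59.3%) had the direction of the representative. Among the 50, probe sets with a name suffix that marks probes shared by several transcripts, of 1 gene or of related genes, represented 12, Wif1, Lcn2, Dmp1 and Fabp4 among them.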

How the data were processed

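Total RNA from mouse osteoblasts was labelled and hybridised to Affymetrix 3′ arrays, 1 per group. The table the authors deposited gives a linear intensity for each probe set on each array. RMA, which corrects background, normalizes arrays and summarises probes, is named in the submitters' processing notes. Neither a software version nor a genome build is given in the sources used here. RMA makes differences of dim probe sets smaller. Log2 was computed from the deposited intensities, and 24 h minus 6 h was taken for each gene. The arrays' median intensities ran from 64.97 to 65.75, and no column of values was left unused.

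Of 45101 probe sets, 64 were controls, 34958 had 1 symbol in the platform annotation, which can be old, and 932 had several. Actb, Gapdh and Pcx were read from control probe sets. With 1 array per group no test was made. A gene was counted as higher or lower at 2-fold or 1.5-fold, and lists by these counts and their median. The 39 lists had 987 entries, of which 83 matched no probe set of a single symbol. The comparison, its members and the lists were chosen with earlier results of these data known.

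Genes to be named were all those at least 2-fold apart, the 20 largest differences in each direction, up to 4 members of each list at 1.5-fold or else the 2 furthest from 0, and a set of fixed genes that included Insr, Igf1r, Igf1, Alpl and Col1a1. Predicted transcripts were passed over, and other named genes were chosen after their values were seen. Promoter windows of 250 bases came from a RefSeq table of GRCm38.p6. Counting was tested on simulated data with known changes. Alternatives were other brightness filters and fold sizes, other scalings, other probe set rules, 16 added to each intensity, the mean in place of list medians, and the 12 h array in place of either array. Python 3.11.15, numpy 2.4.6, pandas 2.3.3, statsmodels 0.14.6 and matplotlib 3.10.9 were used.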

Additional observations from a re-analysis of the deposited data

How the results depend on the processing

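The count of 50 genes at least 2-fold higher was 52 with no brightness filter, 27 with the filter at the 75th percentile, 33 with the mean of all probe sets of a gene, 41 without suffixed probe sets, 37 with 16 added to each intensity, and between 51 and 53 under median centring, quantile normalization and loess. No gene was 2-fold lower except with 12 h in place of 24 h (2 lower, 3 higher). With 12 h in place of 6 h 1 gene was 2-fold higher, none of the 50. At 3-fold 0 genes were higher, and at the smallest size tried in place of 1.5-fold 561 were higher and 220 lower. At 1.5-fold higher, against 196 as reported, the count was 80 with the stricter filter and 12 with 12 h in place of 6 h, of which 0 were among the 196. At 1.5-fold lower, against 14, it was 29 without a filter, 9 with the stricter one, 8 with the mean of probe sets (7 of them among the 14) and 39 with 12 h in place of 24 h (4 among the 14). Lists with medians of at least 0.1 on either side of 0 numbered 8 above and 5 below. With the mean of probe sets 8 lay below, with 12 h in place of 6 h 2 lay below, with 12 h in place of 24 h 14 lay above, and by means 15 lay above. The adipocyte median of 0.18 was 0.29 with a filter on the 6 h and 24 h arrays alone, the osteocyte median of 0.28 was 0.16 without a filter, and the clock median of 0.097 was -0.019 with the mean of probe sets. The median of the IGF list was -0.041 with the mean of probe sets, and that of DNA replication genes 0.082 with 12 h in place of 6 h. With 12 h in place of 6 h the difference changed sign for 1500009L16Rik (-0.0061), Camk4 (-0.086), Ecrg4 (-0.034), G0s2 (-0.040), Gzme (0.090), Map1b (0.055), Mcpt8 (0.67), Ntn4 (-0.051) and Smpd3 (-0.017), and with 12 h in place of 24 h for Oasl2 (0.21) and Zbp1 (0.033). The cause was not tested. No paired analysis was possible because every group has a single array, all labelled replicate 1, so the groups share fewer than 2 numbers. Dim genes are limited by their signal over background, and single arrays limit all of the differences.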
